A study of Mus musculus with 6 samples.

Results

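STAT5A and STAT5B, the transcription factors that carry the interleukin-7 (IL-7) signal into the nucleus of pro-B cells, were followed together with their relative STAT3, with 4 inhibitors of the pathway (Cish, Socs1, Socs2 and Socs3), with the kinase genes Pim1 and Pim2 and with the cytokine gene Osm. Every probe set whose platform annotation carried exactly 1 of these 10 gene symbols was taken and kept separate. All 10 genes, of 18193 measured with a single symbol, were found, and they gave 23 of the 45037 probe sets tested, with 6 for Socs2, 4 for Stat3, 3 for Socs3, 2 each for Stat5a, Stat5b and Pim1, and 1 each for Cish, Socs1, Pim2 and Osm.

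The EBF cells were mouse pro-B cells of Pax5-/- genotype infected with a retrovirus carrying EBF (Mig-EBF), a transcription factor of early B cell development. The control cells were Pax5-/- pro-B cells infected with the control retrovirus (MigR1). Both groups therefore lacked Pax5, the factor of B lineage commitment, and both grew on the stromal line ST2 with 5 ng/ml IL-7, so that the cytokine upstream of STAT5 was supplied throughout. GFP-expressing cells were sorted 2 days after infection, and 3 Affymetrix arrays per group (EBF 1 to 3 and control 1 to 3) were compared. Nothing in the labels says whether replicates came from different cultures or mice. The p-values therefore measure only the spread among these arrays, which may be purely technical.

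IL-7 binding brings together receptor-bound Janus kinases, which phosphorylate STAT5. The phosphorylated protein forms dimers that bind a short inverted repeat in DNA and switch on, among others, the genes of its own inhibitors, CISH and the SOCS proteins, and of the survival kinases PIM1 and PIM2. In early B cell progenitors this pathway supports survival and division. STAT3 is used mainly by cytokines of the IL-6 family, among them oncostatin M, the product of Osm.

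The repeat is shown here because it is the sequence through which STAT dimers reach such genes. RefSeq promoter windows (mouse build GRCm38.p6, 250 bases before to 50 after each annotated start) were matched to 8 of the 10 genes and searched for TTCNNNGAA, which reads the same on both strands. Of 11 windows for these 8 genes, 2 held it, one of Cish and one of Socs3, while 8.30% of all 32851 windows did. The stretches around the matches follow, 5′ to 3′ along the gene's strand, with the matches in capitals. The Cish stretch lies at chr9:107296654-107296683 (plus strand) and the Socs3 stretch at chr11:117969502-117969530 (minus strand).
Cish: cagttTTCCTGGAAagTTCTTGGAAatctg
Socs3: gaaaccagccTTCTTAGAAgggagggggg
In Cish, which encodes an SH2-domain inhibitor of cytokine receptors, the matches began at bases 1 and 12 counted from the annotated start, and 0.457% of all windows held 2 or more. In Socs3, which encodes an inhibitor of Janus kinases, the match began 154 bases before the start (position -154). A match of these letters is a description of the sequence and not a measured binding site.

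Array medians ranged from 439 to 445 intensity units in the EBF arrays and from 424 to 451 in the control arrays. The 27 control probe sets for Bacillus transcripts reached 410 at most, and 21 of the 23 probe sets averaged above that level. All 11 pro-B cell markers measured, among them Igll1, Vpreb1 and Rag1, averaged above it too. The plot of intensities by array shows all 23 probe sets.

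**Figure D1:**
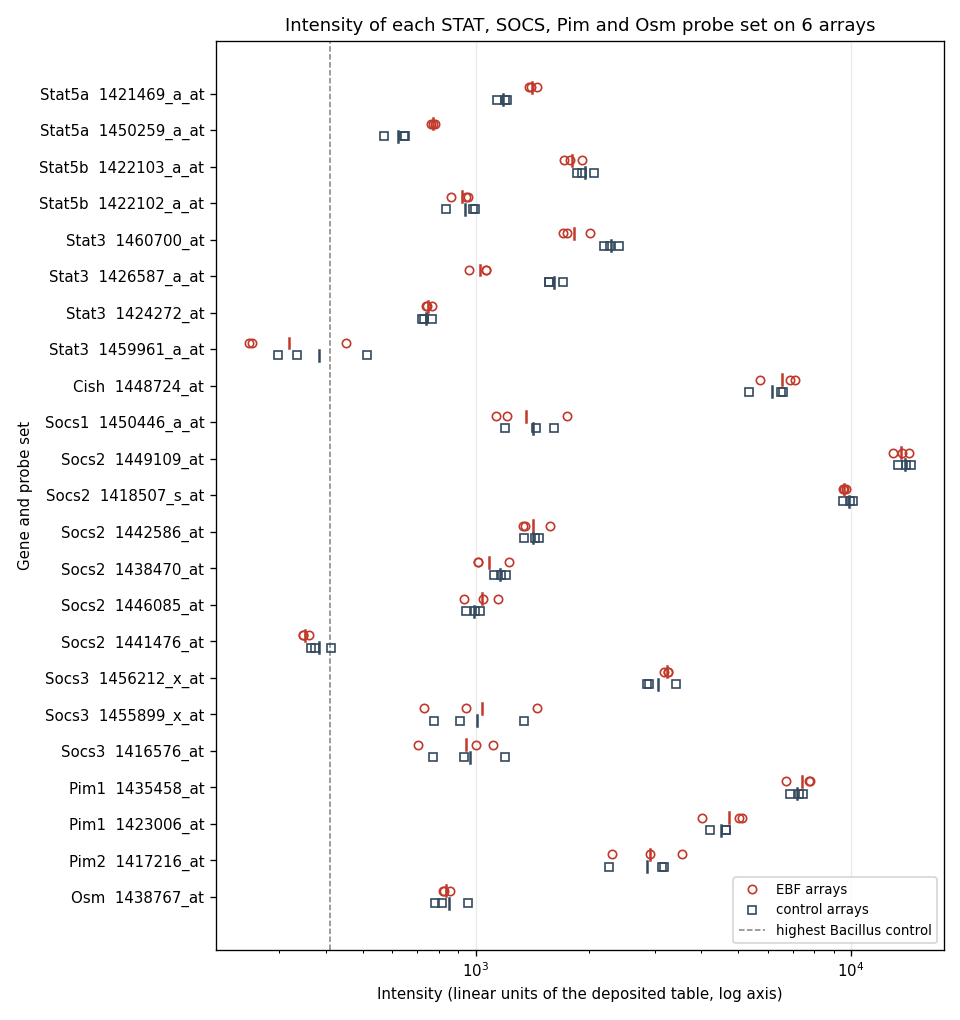
Intensity of each of the 23 probe sets (log axis, units of the deposited table) on the 3 EBF arrays (circles) and the 3 control arrays (squares). Short bars are group means and the dashed line is the highest Bacillus control (410). Stat3 1426587_a_at and 1460700_at and both Stat5a probe sets show separated groups, while the Cish, Socs1, Socs3 and Pim groups overlap.

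Of the 23 probe sets, 1 passed the test, a Stat3 probe set that was lower in EBF cells (limma, Benjamini-Hochberg over all probe sets, threshold 0.05). That is 4.35% of them, against 0.875% of all probe sets in either direction and 0.531% lower. In a fit that added the replicate number as a block, 2 Stat3 probe sets were lower and 0 of the 23 higher. These 2 are 8.70% of the 23, against 7.28% of all probe sets in either direction and 2.40% lower. In that fit 5 of the 23, or 21.7%, had an unadjusted p under 0.05, against 25.4% of all probe sets. The EBF and control arrays did not overlap for 5 of the 23, or 21.7%, near the 23.2% of all probe sets. At an unadjusted p under 0.05 there were 4, or 17.4%, near the 18.9% of all probe sets. The median log2 difference, EBF minus control on the log2(intensity + 32) scale, was -0.02 over the 23 and 0.02 over all probe sets.

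**Figure D2:**
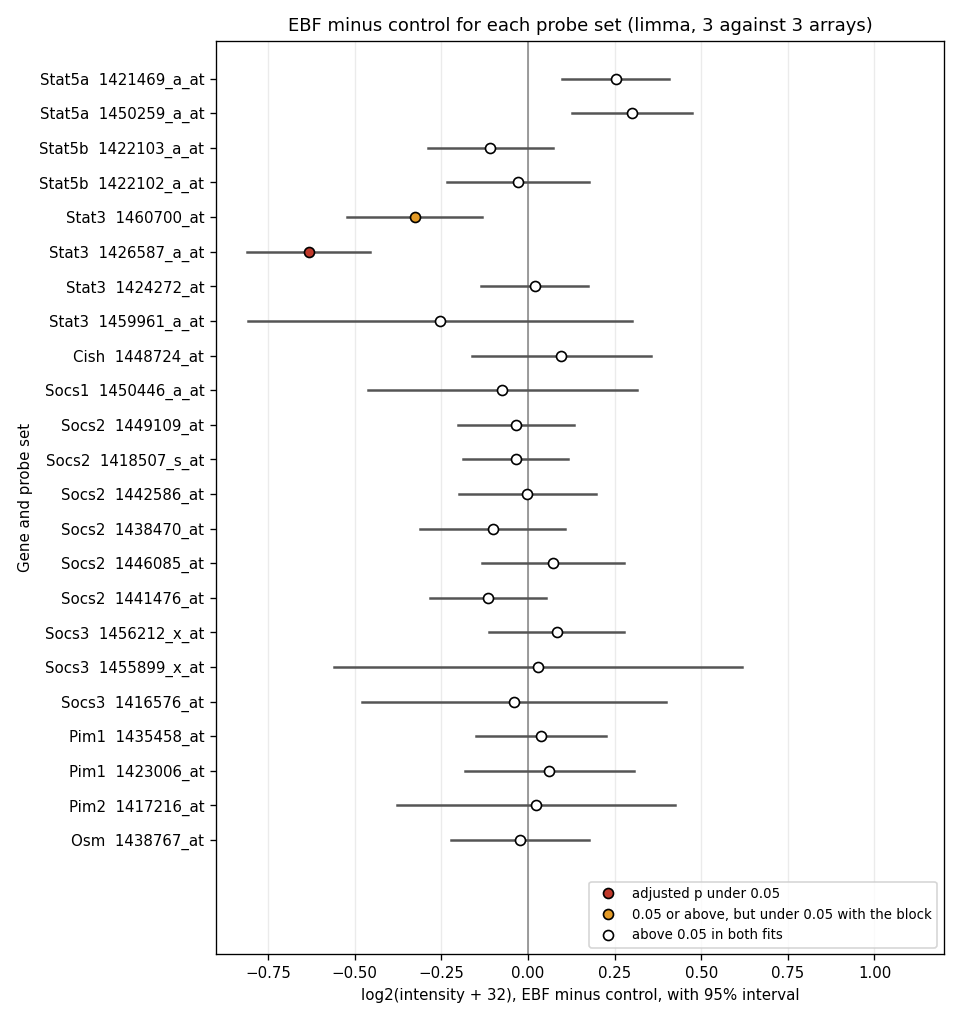
Log2 difference (EBF minus control) of each probe set with its 95% interval from limma, 3 against 3 arrays. Stat3 1426587_a_at lies at -0.63, Stat3 1460700_at at -0.33 and the Stat5a probe sets at 0.25 and 0.30, and the intervals of all others include 0.

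Stat3 gave the smallest p of the 23, and its 4 probe sets did not read alike. Probe set 1426587_a_at read 1064, 961 and 1067 in EBF 1 to 3, against 1568, 1566 and 1710.4 in control 1 to 3. Every EBF array lay well below every control array, and the spread within each group was small beside the gap. The group means were 1031 ± 60.8 in EBF cells and 1615 ± 82.8 in control cells (SD, n = 3 each), a 1.55-fold fall (log2 -0.63 ± 0.08, SE; limma adjusted p = 0.0115, 95% interval -0.81 to -0.46). The call was lost without EBF 2 (adjusted p = 0.0661), control 1 (0.0574) or control 2 (0.0635), while the log2 difference stayed between -0.66 and -0.58 over the 6 fits that left out 1 array.

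A second Stat3 probe set, 1460700_at, read 1758, 1713 and 2017 in EBF 1 to 3, against 2286, 2199 and 2413 in control 1 to 3. The groups did not overlap, although EBF 3 came closer to the controls than the other EBF arrays did. Its log2 difference was -0.33 ± 0.09 (SE; limma adjusted p = 0.127), and it passed with the replicate block (adjusted p = 0.0337) or without EBF 3 (0.0236). Probe set 1424272_at read 737, 743 and 768 in EBF cells and 721, 768 and 728 in control cells. These groups overlapped, and the interval of its log2 difference ran from -0.14 to 0.17, which does not reach the value of either probe set above. The last, 1459961_a_at, read 254, 452 and 249 in EBF cells and 297, 515 and 334 in control cells and averaged below the highest Bacillus control. Its EBF array was below the control array of the same number in all 3 pairs (log2 -0.25 ± 0.24, SE; adjusted p = 0.596, and 0.0843 with the block). The part of the Stat3 transcript that each probe set reads is not known here, so the Stat3 result is that of 1 probe set, or of 2 with the block.

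Some markers of pro-B cells and of other cell types moved beside Stat3. In bulk RNA, fewer cells of a type and less RNA per cell cannot be told apart. Of 11 pro-B markers 1, Vpreb3, was higher (log2 0.67, limma adjusted p = 0.0093) and 1, Dntt, was lower (-0.70, 0.0226). At an unadjusted p under 0.05 there were 8, of which Cd79a and Dntt were lower and the others higher. Of all probe sets 18.9% reached it, but the markers were read at their brightest probe set, for which that share was not computed. With the block 4 of the 11 were higher and 1 lower by limma. Of all genes read this way, 1.09% passed without the block and 7.34% with it. Summed intensities of the 11 were 67358 to 68386 in EBF arrays and 55865 to 57802 in control arrays. Ebf1, read only at its brightest probe set, had a log2 difference of 0.12 (limma adjusted p = 0.469). Whether that probe set also reads the EBF transcript of the virus is not known here. The value therefore cannot say how much EBF the virus added. Of 7 myeloid markers 1, the lysozyme gene Lyz2, was lower (log2 -0.48, adjusted p = 0.0169), and the summed intensity of the list was 3583 to 3835 in EBF arrays and 3749.8 to 4066 in control arrays. The other 6 myeloid markers did not follow Lyz2. Their log2 differences lay between -0.01 and 0.16, and 0 passed by limma (0 at an unadjusted p under 0.05). Their sums were 3014 to 3255 in EBF arrays and 2941 to 3271 in control arrays. However, 3 of them, Itgam, Mpo and Csf3r, averaged below the highest Bacillus control, where a change could go unseen. Of 3 NK markers 1, the granule gene Nkg7, was lower (log2 -1.70, adjusted p = 0.00222), with sums of 1156 to 1207 in EBF arrays and 2077 to 2797 in control arrays. The other NK markers, Ncr1 and Eomes, averaged 189 and 417 in EBF cells, against 181 and 376 in control cells. Over the 6 arrays both averaged below the highest Bacillus control. Of 7 stromal, 5 T cell and 3 erythroid markers 0 passed by limma without the block (1, 2 and 1 had an unadjusted p under 0.05). Among these, 2 T cell markers and 1 erythroid marker averaged below the highest Bacillus control. Stromal sums overlapped, at 12892 to 19319 in EBF arrays and 14434 to 25463 in control arrays. The part of these cells in the Stat3 difference was not tested.

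Stat5a was higher in EBF cells on both of its probe sets, by an amount that did not pass the test. Probe set 1421469_a_at read 1392, 1454 and 1407 in EBF 1 to 3, against 1214, 1197 and 1144 in control 1 to 3. Probe set 1450259_a_at read 760.3, 781 and 772 in EBF cells, against 646, 569 and 648 in control cells. On both, the lowest EBF array exceeded the highest control array. The log2 differences were 0.25 ± 0.07 and 0.30 ± 0.08 (SE; limma adjusted p = 0.133 and 0.121), and with the replicate block the adjusted p-values were 0.0726 and 0.0528.

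The sister gene Stat5b encodes a protein very similar to STAT5A, and it gave no such separation. Probe set 1422103_a_at read 1927, 1785 and 1716 in EBF cells, against 2074, 1859 and 1925 in control cells. Probe set 1422102_a_at read 941, 955 and 858 in EBF cells, against 998, 983 and 836 in control cells. Both pairs of groups overlapped, with log2 differences of -0.11 (95% interval -0.29 to 0.07) and -0.03 (-0.23 to 0.18), and neither passed in either fit. Whether Stat5a and Stat5b differ in their response was not tested, and whether the probes of one also read the other is not known here. In the RefSeq gene table Stat5b, Stat5a and Stat3 lie next to each other on mouse chromosome 11 with no other gene between them.

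**Figure D3:**
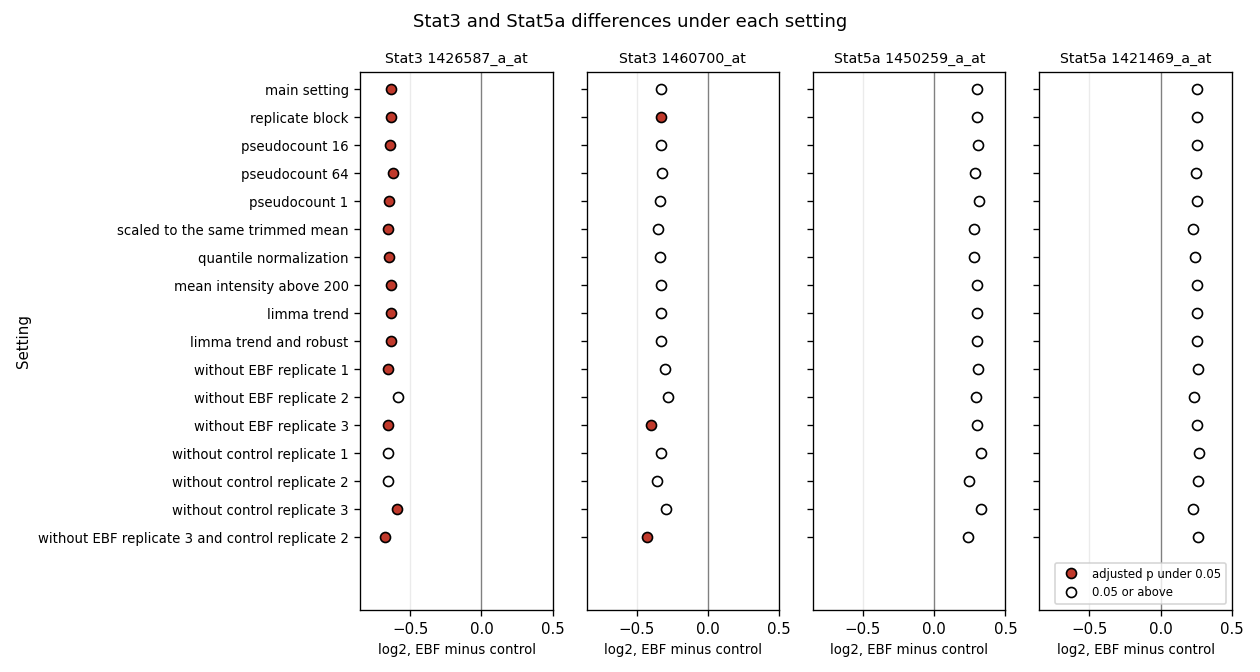
Log2 differences (EBF minus control) of 2 Stat3 and 2 Stat5a probe sets under the main setting and each of 16 alternatives. Filled points passed the adjusted threshold of 0.05 in that fit. Stat3 1426587_a_at and 1460700_at stay below 0 and both Stat5a probe sets above 0 in each fit shown, and Stat5a passes in none of them. The replicate block, the trend and robust options and the minimum intensity cannot change a log2 difference here, only its p-value. The other 2 Stat3 probe sets are not plotted.

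The inhibitor and Pim genes followed here, which STAT5 is known to switch on, gave 14 probe sets, for Cish, Socs1, Socs2, Socs3, Pim1 and Pim2. They are only part of the known STAT5 targets. A separate list of 12 described targets was read with the pathway genes below. By limma without the block, 1 of the 12 was higher (Myc) and 0 lower. With the block 2 were higher (Myc and Ccnd3) and 1 lower (Bcl2). By limma 0 of the 14 passed, with or without the block, against 0.875% of all probe sets without it and 7.28% with it. With 14 probe sets, 6 of them of Socs2, a count of 0 lies near these shares. At an unadjusted p under 0.05 there were 0 in either fit, against 18.9% of all probe sets without the block and 25.4% with it. Their log2 differences lay between -0.11 and 0.10, with a median of 0.01. The intervals given below come from the fit without the block and say how large a difference each could still hide in that fit. They ranged from narrow for Socs2 to wide for Socs3 1455899_x_at and 1416576_at. With the block the largest standard error among the 14 was 0.09, against 0.26 without it.

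Socs2, whose product limits growth hormone and cytokine receptors, was read by 6 probe sets, of which 1449109_at and 1418507_s_at carry a RefSeq accession in the annotation. The first read 14248, 13693 and 12946 in EBF 1 to 3, against 14439.7, 14066 and 13349 in control 1 to 3. The second read 9584, 9707 and 9553 in EBF cells, against 10103, 9970.3 and 9503 in control cells. The groups overlapped on both, with log2 differences of -0.03 (95% interval -0.20 to 0.13) and -0.04 (-0.19 to 0.12). The other 4 Socs2 probe sets had log2 differences of 0.00 (1442586_at), -0.10 (1438470_at), 0.07 (1446085_at) and -0.11 (1441476_at). On 1441476_at, which averaged below the highest Bacillus control, the groups did not overlap, at 347, 348 and 360.3 in EBF cells and 365, 412 and 374 in control cells (adjusted p = 0.425).

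Cish read 6878, 7101 and 5737 in EBF 1 to 3, against 6597, 6497 and 5345 in control 1 to 3. The number 3 array was the lowest in each group, and each EBF array was above the control of its own number by 0.06, 0.13 and 0.10 on the log2 scale. The difference was 0.10 ± 0.11 (SE; adjusted p = 0.675, and 0.455 with the block), with an interval from -0.16 to 0.36. Socs1, an inhibitor that binds Janus kinases directly, read 1754, 1131 and 1213 in EBF cells, against 1621, 1197 and 1452 in control cells. Its groups overlapped, and its interval ran from -0.46 to 0.31.

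For Socs3 1455899_x_at and 1416576_at the differences between replicate numbers were larger than those between the groups. Probe set 1455899_x_at read 945, 1455 and 730.4 in EBF 1 to 3, against 907, 1343 and 773 in control 1 to 3. Number 2 was the highest and number 3 the lowest array in both groups. On 1416576_at the values were 1005, 1116 and 703 in EBF cells, against 933, 1199 and 770.1 in control cells, again with number 2 high and number 3 low. The log2 differences were 0.03 ± 0.26 and -0.04 ± 0.19 (SE), and the errors shrank to 0.08 and 0.08 with the replicate block. The other Socs3 probe set, 1456212_x_at, read 3263, 3263 and 3169 in EBF cells, against 2899, 3414 and 2864 in control cells (log2 0.08, interval -0.11 to 0.28). Its standard error was 0.085 without the block and 0.081 with it.

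**Figure D4:**
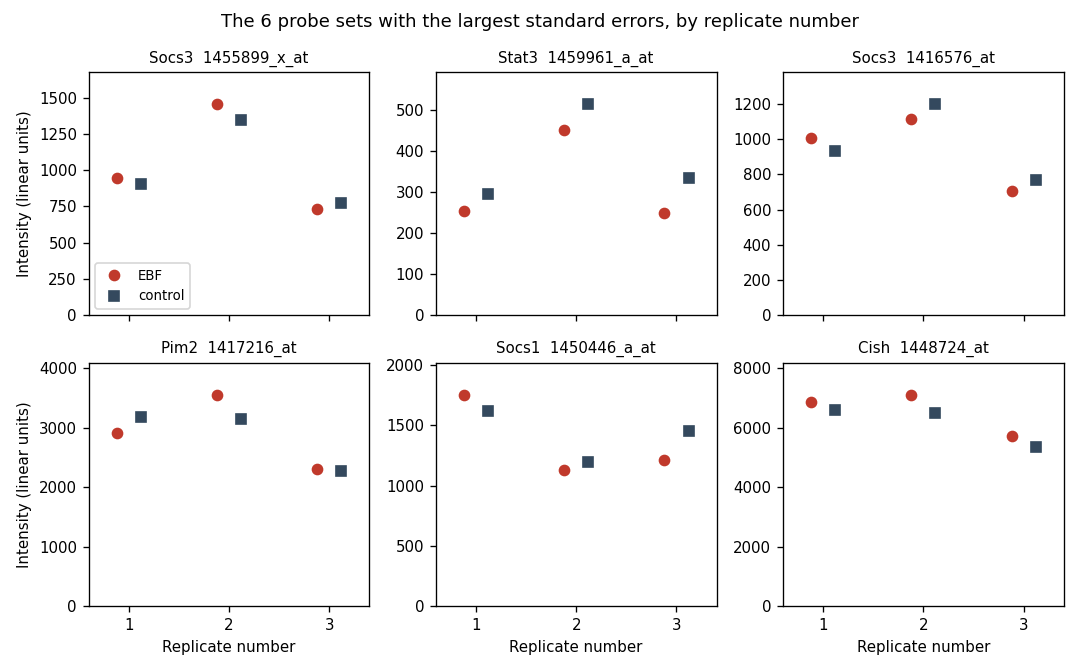
Intensities by replicate number for the 6 probe sets with the largest standard errors, EBF (circles) beside control (squares), with axes from 0. Both Socs3 probe sets shown here and Stat3 1459961_a_at are highest at number 2 in both groups, and Cish and Pim2 are lowest at number 3 in both groups.

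The Pim kinases phosphorylate proteins of growth and survival. Pim1 probe set 1435458_at read 7719.8, 7764 and 6729 in EBF 1 to 3, against 7448, 7272 and 6887 in control 1 to 3. Probe set 1423006_at read 5127, 5042 and 4001 in EBF cells, against 4656, 4636 and 4208 in control cells. On both, EBF 3 was the lowest of all 6 arrays and EBF 1 and EBF 2 were above every control, and the log2 differences were 0.04 (95% interval -0.15 to 0.23) and 0.06 (-0.18 to 0.31). Pim2 read 2911, 3548 and 2306 in EBF cells, against 3182, 3144 and 2266 in control cells. Number 3 was again the lowest in both groups, and the log2 difference was 0.02 ± 0.18 (SE; adjusted p = 0.955), with an interval from -0.38 to 0.43.

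Osm, the ligand in the set, read 817, 856 and 824 in EBF cells, against 781, 952 and 815 in control cells. The groups overlapped, and the log2 difference was -0.02 with an interval from -0.22 to 0.18 (adjusted p = 0.909). The receptor chain genes that its product uses gave no call either. Osmr had a log2 difference of 0.00 and Il6st, the shared chain gp130, one of -0.29 (adjusted p = 0.464).

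Beyond these genes, 45 of 48 listed genes of the JAK-STAT pathway were measured, each read at its brightest probe set. By limma 1 was higher and 0 lower, which is 2.22%, against 1.09% of all genes read this way. At an unadjusted p under 0.05 there were 11 of the 45, while 18.9% of all probe sets reached it. That share was not computed for genes at their brightest probe set, so the 11 cannot be judged against a like share. With the block 3 were higher and 3 lower, which is 13.3%, against 7.34% of all genes. The median log2 difference over the 45 was -0.02.

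The calls fell in several roles. Myc, a growth regulator described as a STAT5 target, read 6585, 6588 and 6536 in EBF 1 to 3, against 5053, 4270.5 and 4547 in control 1 to 3. The groups lay far apart (log2 0.51 ± 0.08, SE; adjusted p = 0.0325), although Myc kept this call only when EBF 3 was the array left out (adjusted p up to 0.159 without another). Other genes missed the threshold in the fit with group alone and passed it with the block. Of these, Ptpn6, the phosphatase SHP-1 that dampens cytokine receptors, read 2825, 2780.4 and 3143 in EBF cells, against 3802, 3847 and 3709 in control cells. All its EBF arrays were below all its control arrays (log2 -0.37; adjusted p = 0.0718, 0.0263 with the block and 0.0162 without EBF 3). Stat4, a STAT of interleukin-12 signalling, read 808, 892 and 1014 in EBF cells, against 1127, 1084 and 1344 in control cells (log2 -0.38; adjusted p = 0.150, 0.0229 with the block and 0.0370 without EBF 3).

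The rest were Il7r, the IL-7 receptor chain (log2 0.42, blocked adjusted p = 0.0224), the cyclin gene Ccnd3 (0.31, blocked 0.0402, and 0.0433 without EBF 3) and the survival gene Bcl2 (-0.40, blocked 0.0230). Without the block their limma adjusted p-values were 0.221, 0.0879 and 0.0964. The Il7r groups overlapped, at 5963 to 7449 in EBF arrays and 4039 to 6269 in control arrays, while those of Ccnd3 and Bcl2 did not. Of 8 receptors and kinases the remaining 7 passed in neither fit, with Jak1 at -0.21 and the TSLP receptor gene Crlf2 at -0.19. Of 14 other inhibitors, 13 passed in neither fit, and so did all 7 IL-6 family ligands and receptors and Pim3.

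Stat3 1426587_a_at had the smallest p among the 23, and its pattern over the 6 arrays was set against 19315 other probe sets with 1 gene symbol and above-median brightness. The highest Pearson correlations on the log2 scale were with Isg20, an antiviral exonuclease (r = 0.995), Psap, the precursor of lysosomal saposins (0.994), and Ripor1 (0.993). Their log2 differences were -0.63, -0.23 and -0.51, of which that of Psap did not pass (limma adjusted p = 0.0145, 0.151 and 0.0135), and the choice of a probe set that was lower fixed their direction. With 6 points that share arrays and groups, 193 probe sets had an r above 0.95, so this is a description.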

How the data were processed

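The deposited table holds 1 intensity per probe set and array on a linear scale, for 6 arrays; per the labels' protocols, biotinylated cRNA was made from 6 microg total RNA. For these intensities, the software, background step and scaling of the authors are not named in any source used here. The design text names a rat array, while the platform annotation and the organism label are mouse, so mouse probe sets were read. The 64 Affymetrix controls were left out. Values were analysed as log2(intensity + 32) without further scaling, since 2% trimmed means of the arrays lay within 1.03 times of each other, and fold changes on that scale understate changes of dim probe sets. EBF minus control was fitted over 45037 probe sets by limma 3.58.1 under R 4.3.3, with group as the only term and two-sided moderated tests from eBayes, with Benjamini-Hochberg adjustment and a threshold of 0.05; the code was tested on simulated data. The number of arrays limits the precision.

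After subtracting group means, arrays that share a number correlated at 0.318, 0.255 and 0.503 (numbers 1 to 3), all above 0.1, so the numbers were taken as pairs. Arrays of different numbers correlated at -0.371 to 0.0581. With 3 arrays per group, subtracting the means ties these values to each other, so they are not independent. The labels state only the numbers, so this pairing, and with it each blocked p-value, rests on the data. The genes and lists were chosen with earlier results of these data known. All probe sets of the 10 genes are described, pathway genes are named where called in either fit, and other genes were picked with their values in view. Some entries of the pathway and marker lists are not reported here, and Lnk repeats Sh2b3. Alternatives were pseudocounts of 1, 16 and 64, trimmed mean scaling, quantile normalization, a minimum mean intensity of 200, limma's trend and robust options, the replicate block and leaving out arrays.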

Additional observations from a re-analysis of the deposited data

How the results depend on the processing

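Over 16 alternatives, the 23 probe sets kept the sign of their log2 difference in 341 of 368 values. The replicate block, limma's trend and robust options and the minimum intensity leave each log2 difference as it was. Values from those settings could therefore not change sign. Of the 368, 6 values changed side of the threshold, all of Stat3 1426587_a_at or 1460700_at. The number of the 23 called (1) was 2 with the replicate block and 0 to 2 with 1 array left out, being 0 without EBF 2, control 1 or control 2 (limma; 5, 4 and 4 had an unadjusted p under 0.05). Over all probe sets the count (394) was 3280 with the replicate block, 215 with a pseudocount of 1, 611 with limma's trend and robust options, and 79 to 4287 with 1 array left out, the highest without EBF 3. Of the 45 pathway genes (1 called), 6 were called with the block, 4 with the trend option, 4 with trend and robust, 0 with a pseudocount of 1 (limma; 11 had an unadjusted p under 0.05), and 0 to 4 with 1 array left out. Without EBF 3 and control 2 together, chosen after seeing the data, the counts were 2, 1887 and 2. The causes were not tested. The block changed no call among the 23 other than that of Stat3 1460700_at. Intensities carry no read depth, and 2 of the 23 averaged below the highest Bacillus control.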

Other observations

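Epor, the erythropoietin receptor, which also signals through STAT5, stood in the list of erythroid markers. It read 1307, 1321 and 1118 in EBF 1 to 3, against 1024, 832 and 839.5 in control 1 to 3. The groups did not overlap, and the log2 difference of 0.46 ± 0.11 (SE) passed with the replicate block (limma adjusted p = 0.0963, and 0.0151 with the block). The other erythroid markers measured passed in neither fit. Klf1, a regulator of globin genes, averaged 1221 in EBF cells and 1264 in control cells. The globin gene Hba-a1 averaged 142 in EBF cells and 149.5 in control cells, below the highest Bacillus control.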
